A study of Mus musculus with 12 samples.

Results

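Small RNA was sequenced from the serum of 3 tumor-bearing mice and from serum of the same mice before tumor cells were given, after 5′ tRNA fragments, which are cut from tRNAs at the anticodon loop and crowd serum libraries, had been removed from the RNA. The 6 libraries described here, of 12 in the series, are the depleted aliquots before tumor (3 libraries) and after tumor (3 libraries), linked by mouse number (1046, 1047 and 1069). The animals were female athymic NCr nude mice, 4 to 6 weeks old when the xenografts were made, and the control serum came from the same animals, so both groups share strain, sex and immunodeficiency. Human SH-SY5Y cells, an established neuroblastoma cell line, were implanted surgically beneath the renal capsule, and the later serum was taken 2 weeks after injection, when the study describes palpable tumors. No mouse without a tumor was sampled at the later time, so tumor, surgery, age and repeated bleeding cannot be told apart in what follows. RNA came from 50 µl of serum, the tRNA fragments were captured with biotinylated DNA probes on streptavidin beads, and each library was amplified with 15 PCR cycles.

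MicroRNAs (miRNAs) are short RNAs that lower the output of messenger RNAs, mainly through pairing of the seed, bases 2 to 8 of the miRNA. Members of a family share a seed, and members of a cluster are cut from one primary transcript. Serum miRNAs come from blood cells and from tissues: miR-451a and miR-144 are made in red blood cell precursors, miR-133a in muscle, miR-192, miR-194 and miR-215 in kidney, liver and gut, and miR-128 in brain. In serum, fewer releasing cells and less release per cell cannot be told apart.

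The mature sequences of the miRNAs on which the results turn are given first (RefSeq, GRCm38.p6), because several whose values lay on both sides of 0 share a seed. The seed is in capitals. The erythroid pair miR-451a and miR-144-3p, and miR-191-5p and miR-128-3p, have seeds of their own among the sequences shown.
miR-451a: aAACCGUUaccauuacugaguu
miR-144-3p: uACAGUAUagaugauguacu
miR-191-5p: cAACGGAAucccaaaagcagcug
miR-128-3p: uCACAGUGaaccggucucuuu
The miR-15/16 family shares the seed AGCAGCA, and both members shown fell.
miR-16-5p: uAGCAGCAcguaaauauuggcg
miR-15a-5p: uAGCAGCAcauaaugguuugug
The miR-25/92 family shares AUUGCAC, and the miR-30 family GUAAACA. Members of each lay on both sides of 0.
miR-25-3p: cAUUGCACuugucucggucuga
miR-92a-3p: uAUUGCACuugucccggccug
miR-92b-3p: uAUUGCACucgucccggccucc
miR-30a-5p: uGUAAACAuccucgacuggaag
miR-30e-5p: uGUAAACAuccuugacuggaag
miR-30c-5p: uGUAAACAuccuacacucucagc
The pair miR-192-5p and miR-215-5p shares UGACCUA, and miR-130a-3p and miR-301a-3p share AGUGCAA.
miR-192-5p: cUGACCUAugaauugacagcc
miR-215-5p: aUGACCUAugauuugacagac
miR-130a-3p: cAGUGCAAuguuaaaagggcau
miR-301a-3p: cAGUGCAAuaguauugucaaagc

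The depleted libraries held between 938706 and 2271549 mouse miRNA counts and listed between 546 and 614 mouse miRNAs each. At a cut-off of 4 counts, 373, 392 and 381 miRNAs were detected before tumor and 457, 441 and 457 after, so the groups did not overlap (mean 382 ± 9.54 against 452 ± 9.24, SD, n = 3 each). A two-sided exact permutation test gave p = 0.10, the smallest p that 3 against 3 libraries allow. After every library was thinned to 938706 counts the difference fell from 69.7 to 20.8 miRNAs and the groups overlapped (exact permutation p = 0.40). One library stood apart: the before-tumor library of mouse 1069, the smallest of the 6, held 46 of 311 tested miRNAs at more than 2 times both other before-tumor libraries, against 3 to 6 for each of the other 5 libraries within its own group. Each call that was lost without it is named beside its value.

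Of 311 miRNAs tested, 33 changed (10.6%), which here means a DESeq2 adjusted p under 0.05 together with a fold change of 2 or more. After tumor, 15 were higher (4.82%) and 18 were lower (5.79%). Counts were scaled by the median of ratios, and fold changes are shrunken log2 values, after against before, with their standard error (SE). The erythroid miRNAs, miR-15a-5p, miR-16-5p and muscle miR-133a fell, while miR-191-5p, miR-128-3p, miR-215-5p and both arms of miR-339 rose. In 32 of them every mouse moved in the direction of the estimate, and 32 had groups that did not overlap, against 38.3% of all tested miRNAs (20.3% higher and 18% lower). At the adjusted p alone, with no limit on the fold, 52 passed (16.7%).

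**Figure D1:**
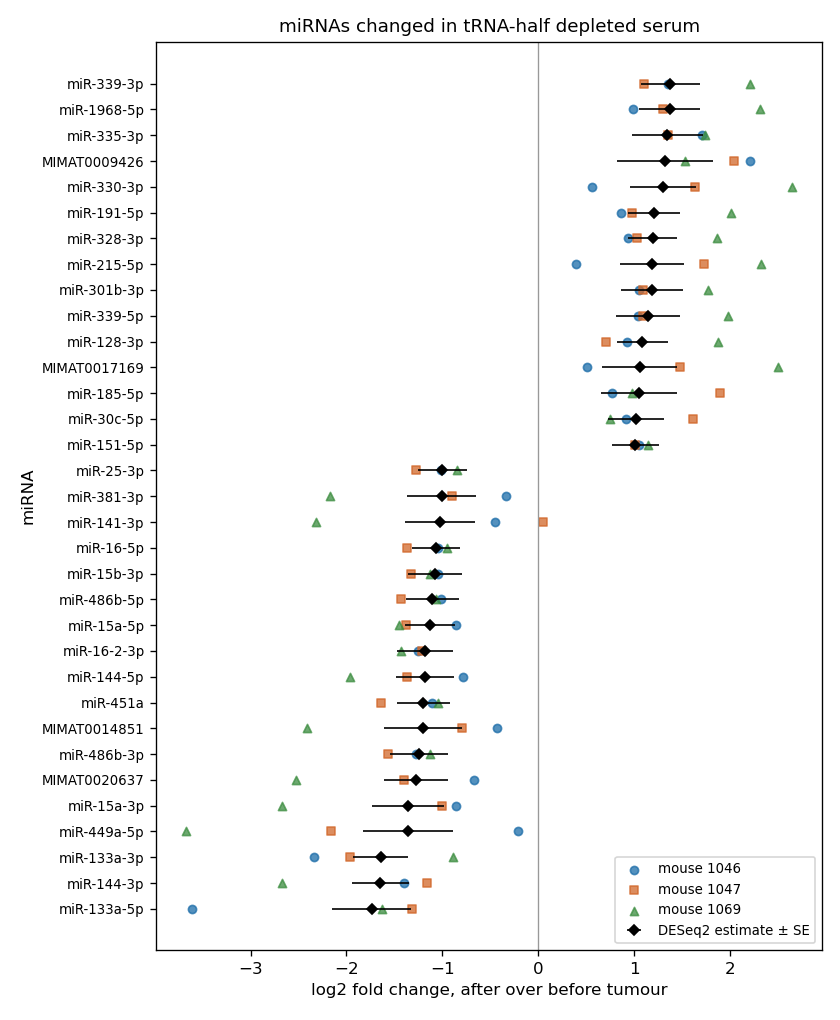
The 33 changed miRNAs (y axis) with the log2 fold change after over before tumor (x axis). Diamonds and bars are the DESeq2 estimate ± SE, and coloured points are the ratios of each mouse (normalised count + 1). In miR-141-3p, mouse 1047 lies on the other side of 0.

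The split into higher and lower depended on the scaling. Scaled to total counts, 37 miRNAs changed, of which 32 were higher and 5 were lower, and the median log2 change of the tested miRNAs moved from -0.10 to 0.12. The other scalings moved that median by 0.04 or less. The number of calls depended on single libraries: it was 12 without the after-tumor library of mouse 1069, 14 without mouse 1047 and 19 without mouse 1069. When each of the 6 libraries was left out in turn, 7 of the 33 kept their call in every fit, which were miR-328-3p, miR-330-3p, miR-339-3p and miR-1968-5p among those higher and miR-144-3p and both arms of miR-133a among those lower. The other 26 fell short of the adjusted p or the 2-fold limit, or were not tested, in 1 or more of these fits. With mouse as a block, 8 of the 33 lost their call: miR-25-3p (-0.98), miR-151-5p (0.99) and miR-185-5p (0.97, adjusted p = 0.18) fell below 2-fold, as did miR-141-3p (-0.86, adjusted p = 0.11) and miR-381-3p (-0.97, adjusted p = 0.097), and miR-449a-5p (-1.24, adjusted p = 0.11), MIMAT0009426 (1.17, adjusted p = 0.17) and MIMAT0014851 (-1.07, adjusted p = 0.097) missed the adjusted p.

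The erythroid miRNAs fell together. The list of markers that define red blood cells held 5 members with an accession here (miR-451a, both arms of miR-144 and 2 accessions of miR-486b), and 5 of 5 changed, all lower, with a median of -1.20 against -0.10 over all tested miRNAs. Of these, 3 come from the neighbouring miR-144 and miR-451a hairpins, and reads of the miR-486b accessions cannot be separated. The 5 values are thus not independent, and the list was chosen with earlier results of these data known. miR-451a, which in red cell maturation is cut by Argonaute 2 rather than Dicer, had 258758, 315591 and 168764 normalised counts before tumor in mice 1046, 1047 and 1069, and 119604, 101605 and 81796 after. The lowest value before tumor was above the highest after. The log2 change was -1.20 ± 0.28 (SE; DESeq2 adjusted p = 6.02e-04), which is 2.29-fold lower, and -0.99 without the before-tumor library of mouse 1047.

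miR-144-3p, from the hairpin next to that of miR-451a (chr11:78073047-78073066 and chr11:78073186-78073207, plus strand, GRCm38.p6, both in annotated miRNA hairpins), had 4499, 3384 and 7368 counts before and 1699, 1509 and 1156 after. It fell in every mouse, by 1.65 ± 0.30 on the log2 scale (DESeq2 adjusted p = 3.96e-06). miR-144-5p had 857, 1087 and 858 before and 497.6, 420.3 and 219.3 after, a log2 change of -1.18 ± 0.30 (DESeq2 adjusted p = 0.0017). Both arms of the hairpin were thus lower.

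Both miR-486b accessions fell in every mouse. miR-486b-3p went from 8785, 11392 and 5191 counts to 3617, 3839 and 2372 (-1.25 ± 0.30, DESeq2 adjusted p = 9.24e-04), and miR-486b-5p from 3880, 4940 and 2782 to 1914, 1835 and 1331 (-1.10 ± 0.28, DESeq2 adjusted p = 0.0013). Reads of the 2 arms and of miR-486a cannot be separated in these tables. The counts named miR-486b-5p were nearest to those of human miR-486-3p (4.38% apart), so the arm labels are uncertain. The 5 markers held 15.3%, 16.8% and 12.4% of all mouse counts before tumor and 8.91%, 7.58% and 5.81% after. The widest 95% Wilson interval of these shares, which covers counting error only, was ± 0.07 points. The mean share fell by 7.40 points (14.8% ± 2.26 to 7.43% ± 1.56, SD, n = 3; exact permutation p = 0.10, exact sign-flip by mouse p = 0.25, both the smallest possible). Shares of the red-cell, platelet, endothelial, muscle, liver, kidney, neural and cancer-linked lists gave the same p in both tests. Reaching it is thus not particular to the erythroid list. Haemolysis readings were not analysed here, and the part of red cell lysis in the erythroid values was not tested.

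miR-16-5p, one of the most abundant miRNAs of red cells and often used as a serum reference, had 227178, 251137 and 162379 counts before and 110238, 96929 and 84144 after. The groups did not overlap, and the log2 change was -1.07 ± 0.25 (DESeq2 adjusted p = 8.85e-04). miR-16-5p kept its call in 3 of the 6 fits that left out 1 library. In the list of other miRNAs abundant in red cells 12 of 12 were tested, 3 changed lower (miR-16-5p, miR-15a-5p and miR-25-3p) and 1 higher (miR-185-5p). Of these, miR-25-3p and miR-185-5p lost their call with mouse as a block. The list median was -0.56. miR-185-5p was scarce, with a mean of 28.5 ± 7.48 counts before and 68.0 ± 19.4 after (SD, n = 3).

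**Figure D2:**
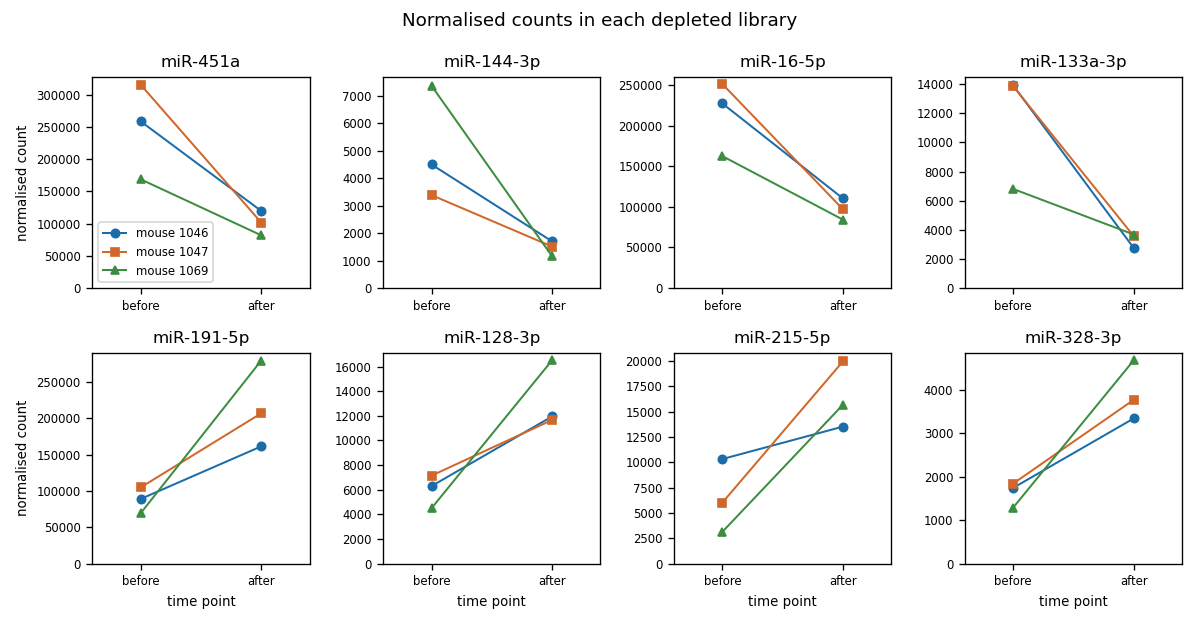
Normalised counts (y axes, linear from 0) of 8 miRNAs in each depleted library, before and after tumor (x axes), with 1 line per mouse. The 4 upper miRNAs fall in every mouse and the 4 lower ones rise in every mouse.

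Values ranged widely within families and clusters, and differences between members were not tested. The median over all tested miRNAs was itself below 0 (-0.10, and 0.12 with total-count scaling). Members of a family, cluster or list may not be independent, so counts of members below 0 are descriptive only. In the miR-15/16 family 6 of 6 were tested and 2 were lower, and the range ran from -1.13 to 0.45. miR-15a-5p fell from 4909, 5457 and 4447 counts to 2698, 2091 and 1623 (log2 -1.13 ± 0.26, DESeq2 adjusted p = 6.02e-04), and miR-322-5p, encoded on the X chromosome, had a value of 0.45 ± 0.28 that did not pass. Of the 4 passenger arms of the miR-15a, miR-15b and miR-16 hairpins, 3 fell. miR-15a-3p went from 105.7, 87.0 and 210.5 counts to 57.8, 43.0 and 32.3 without overlap (-1.35 ± 0.38, DESeq2 adjusted p = 0.0038), and was -0.93 without the before-tumor library of mouse 1069. miR-16-2-3p fell by 1.18 and miR-15b-3p by 1.08 on the log2 scale, while miR-16-1-3p had a value of -0.65 ± 0.51 that did not pass. miR-15a and miR-16-1 lie together on chromosome 14, and miR-15b and miR-16-2 on chromosome 3. miR-16-5p reads from the 2 loci cannot be told apart.

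In the miR-106b-25 cluster on chromosome 5 (chr5:138165332-138165807, minus strand), 6 of 6 members had values below 0, with a median of -0.86, and 1 passed both thresholds. That was miR-25-3p, which had 65113, 75618 and 47403 counts before and 32307, 31136 and 26281 after, with no overlap (log2 -1.002 ± 0.254, DESeq2 adjusted p = 0.0016). Its change lay at the 2-fold limit. Values of -0.82 ± 0.27 for miR-93-5p (DESeq2 adjusted p = 0.018) and -0.89 ± 0.23 for miR-106b-5p (DESeq2 adjusted p = 0.0019) were under 2-fold. In the related miR-17-92 cluster 7 of 7 tested members had values below 0 and none changed. The median was -0.29 (-0.49 without the before-tumor library of mouse 1069). miR-19b-3p, the most abundant after miR-92a-3p, had a value of -0.41 (-0.70, adjusted p = 2.90e-04, without that library). With total-count scaling the median was -0.0053 and miR-18a-5p was above 0 (0.23). miR-92a-3p and miR-19b-3p have 2 loci each, the other on the X chromosome in the cluster of miR-363 and miR-20b.

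Members that share the miR-25 seed lay on both sides of 0. miR-92a-3p, the most abundant of the family, had 102981, 122495 and 64088 counts before and 75789, 81538 and 76024 after, so the groups overlapped (-0.29 ± 0.27, DESeq2 adjusted p = 0.49, and -0.49, adjusted p = 0.0064, without the before-tumor library of mouse 1069). miR-92b-3p and miR-363-3p had values of 0.77 and 0.73 that did not pass. Over the 5 tested members, 1 was lower and 4 were not called.

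The miR-30 family, which shares GUAAACA, also lay on both sides of 0. miR-30c-5p rose from 1079, 1269 and 1806 counts to 2041, 3884 and 3034 with no overlap (1.02 ± 0.29, DESeq2 adjusted p = 0.0052). It kept its call in 2 of the 6 fits that left out 1 library. miR-30a-5p had 61524, 75667 and 42113 counts before and 34429, 29301 and 22686 after, with a log2 value of -0.98 ± 0.28 just under the 2-fold limit (DESeq2 adjusted p = 0.0045). miR-30e-5p, whose hairpin lies near one of the 2 miR-30c hairpins on chromosome 4, overlapped between the groups (-0.57 ± 0.30, DESeq2 adjusted p = 0.19, and -0.87 without the before-tumor library of mouse 1069). The median of the 5 members was 0.01, -0.03 when the erythroid lists were left out of the scaling and -0.19 without the before-tumor library of mouse 1069.

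miR-191-5p, among the 10 most abundant miRNAs, rose from 88911, 104766 and 69276 normalised counts to 161192, 206650 and 279163. The groups did not overlap, and the rise was 1.21 ± 0.27 on the log2 scale (2.31-fold; DESeq2 adjusted p = 6.00e-04). It was under 2-fold without the after-tumor library of mouse 1069 (0.99, adjusted p = 0.034) and without mouse 1069 (0.90). The cluster of miR-191 and miR-425 on chromosome 9, of which miR-191-5p alone was called among 3 tested members, held 5.08% ± 0.33 of all counts before tumor and 14.9% ± 3.73 after (SD, n = 3; exact permutation p = 0.10, exact sign-flip by mouse p = 0.25). miR-425-5p of the same cluster overlapped between the groups, with 3104, 3405 and 1759 counts before and 2305, 2504 and 2924 after (-0.09 ± 0.28, DESeq2 adjusted p = 0.87).

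Both arms of miR-339, miR-328-3p and miR-301b-3p were also higher. miR-339-3p, the largest rise, had 99.0, 127.7 and 68.6 counts before and 255.2, 275.5 and 320.1 after (1.38 ± 0.31, DESeq2 adjusted p = 5.74e-04), and its partner arm miR-339-5p had 102, 89 and 45 before and 210, 191 and 179 after (1.15 ± 0.33, and 0.97 without the before-tumor library of mouse 1069). miR-328-3p went from 1746, 1844 and 1291 counts to 3345, 3774 and 4685 (1.19 ± 0.26, DESeq2 adjusted p = 3.48e-04). In each of these the lowest value after tumor was above the highest before. The miR-130 and miR-301 family had 4 of 4 values above 0, with a median of 0.73, and 1 changed: miR-301b-3p, which went from a mean of 64.1 ± 9.38 counts to 161 ± 35.8 (SD, n = 3; log2 1.18 ± 0.33). miR-130a-3p, its most abundant member, had 2243, 2676 and 1834 counts before and 4303, 4218 and 5426 after, a value of 0.98 ± 0.25 under the 2-fold limit (DESeq2 adjusted p = 0.0017).

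Further miRNAs were higher after tumor. miR-1968-5p went from 123, 151 and 81 counts to 245, 372 and 406 (1.37 ± 0.32), miR-335-3p from 30.8, 55.0 and 28.7 to 102.7, 142.3 and 98.1 (1.35 ± 0.37), and miR-330-3p from 181.9, 116.7 and 57.4 to 268.1, 364.9 and 363.6 (1.30 ± 0.34). MIMAT0009426 had 3, 8 and 8 counts before and 16, 35 and 25 after (1.32 ± 0.50). It kept its call under 4 of 18 other settings, and was not tested without the before-tumor library of mouse 1069. miR-151-5p (1.01) and MIMAT0017169 (1.06, and 0.79 without the before-tumor library of mouse 1069) also rose.

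**Figure D3:**
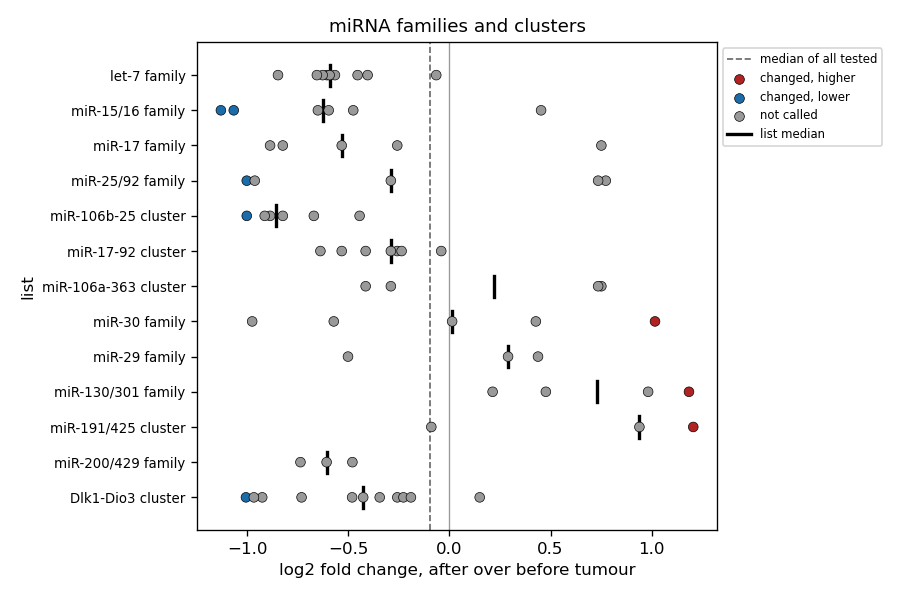
Log2 fold change after over before tumor (x axis) of tested members of 13 families and clusters (y axis), each point 1 miRNA, with the list median as a bar and the median of all tested miRNAs (-0.10) as a dashed line. The miR-30 row runs from -0.98 to 1.02, and the 9 let-7 members all lie below 0.

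The let-7 family, regulators of developmental timing, had values below 0 for 9 of 9 members (range -0.85 to -0.07) and no call. Its median was -0.59, against -0.10 over all tested miRNAs. The 2 most abundant, let-7i-5p and let-7g-5p, had values of -0.45 ± 0.24 and -0.07 ± 0.23, and let-7g-5p was above 0 with total-count scaling. Of the other families without a call, the miR-29 family had a median of 0.29 (3 tested) and the miR-181 family 0.11 (4 tested). The groups did not overlap in any of the 3, as in 38.3% of all tested miRNAs, and none was called. miR-29a-3p (0.44 ± 0.24) and miR-29b-3p (0.29 ± 0.25) lay above 0, and miR-29c-3p (-0.50) lay below. No member was called in the families of miR-148a, miR-99b, miR-125a, miR-200c and miR-221, and the 2 most abundant members of each had values between -0.85 (miR-148a-3p) and 0.52 (miR-222-3p), with miR-99b-5p at 0.13. miR-148a-3p was far higher in the before-tumor library of mouse 1069 than elsewhere, with 11794, 10587 and 52225 counts before and 10070, 8880 and 10447 after (-0.85 ± 0.51, DESeq2 adjusted p = 0.24). Its value was -0.16 without that library, and that of miR-99b-5p was 0.47. In the miR-17 family 5 members were tested and none passed both thresholds (median -0.53).

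Muscle miR-133a fell in both arms. miR-133a-3p went from 13928, 13871 and 6806 counts to 2746, 3560 and 3676, with no overlap (-1.64 ± 0.29, 3.13-fold lower, DESeq2 adjusted p = 3.96e-06). The other arm, miR-133a-5p, had 119, 59 and 88 counts before and 9, 23 and 28 after (-1.74 ± 0.41, DESeq2 adjusted p = 8.85e-04). Of 7 listed muscle miRNAs, 2 had an accession here and 1 was tested, so the value stands for miR-133a only.

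miRNAs assigned to kidney, the organ that holds the graft, had a median of 0.60 over 6 tested members, 1 of them changed. The median was 0.36 without the before-tumor library of mouse 1069 and 0.29 without mouse 1069. miR-215-5p rose from 10320, 6018 and 3133 counts to 13519, 19953 and 15675 (1.19 ± 0.33, DESeq2 adjusted p = 0.0038). The value was 0.97 without the before-tumor library of mouse 1069 and 0.82 without mouse 1069, both under 2-fold. miR-192-5p, with the same seed, had 14294, 12185 and 6613 counts before and 15060, 17976 and 19819 after, a value of 0.62 ± 0.29 that did not pass (DESeq2 adjusted p = 0.13). miR-10a-5p, the most abundant of the list, overlapped between the groups (0.57 ± 0.33, and 0.30 without that library).

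The list assigned to nervous tissue had 7 tested members of 14, of which miR-128-3p alone changed, with a median of 0.06 that became 0.51 without the before-tumor library of mouse 1069. miR-128-3p rose from 6296, 7146 and 4499 counts to 11950, 11666 and 16512 without overlap (1.08 ± 0.27, DESeq2 adjusted p = 0.0011). The value was under 2-fold without the before-tumor library of mouse 1069 (0.99), without the after-tumor library of that mouse (0.91) and without mouse 1069 (0.80). The neuron-specific miR-124-3p was below the count at which miRNAs were tested. Human miRNAs with the same sequence are counted in the mouse tables, so mouse and graft sources of miR-128-3p cannot be told apart here. The same limit holds for other miRNAs whose mouse and human counts nearly match. Among those that rose, these include miR-191-5p, miR-30c-5p, miR-328-3p, miR-335-3p and miR-339-5p.

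In the epithelial list 9 of 10 were tested, 9 of 9 had values below 0 and 1 changed. The list median of -0.58 rested on 1 library: it was -0.05 without the before-tumor library of mouse 1069 and 0.03 without mouse 1069. The changed member was miR-141-3p, with 2103, 1544 and 6543 counts before and 1534, 1600 and 1315 after. Its groups overlapped, mouse 1047 did not fall, and without the before-tumor library of mouse 1069 the value was -0.26 (DESeq2 adjusted p = 0.29) in place of -1.03 ± 0.37 (adjusted p = 0.036). The most abundant member of the list, miR-205-5p, had a value of -0.42 ± 0.27 that did not pass (-0.23 without the same library). The neuroendocrine miR-375-3p had 2489, 1885 and 11682 counts before and 2790, 5191 and 4400 after, and its value turned from -0.22 to 0.89 (adjusted p = 6.04e-04) without that library.

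The remaining tissue lists held no call. The mesenchymal list had a median of -0.70 over 6 members, led by miR-143-3p at -0.80 ± 0.27 (DESeq2 adjusted p = 0.023, under 2-fold). The median moved to -0.27 without the before-tumor library of mouse 1069 and to -0.18 without mouse 1069. The platelet list had a median of 0.45 (4 tested), the leukocyte list 0.35 (7 tested; 0.17 without the before-tumor library of mouse 1069 and 0.03 without mouse 1069), the endothelial list 0.16 (3 tested) and the liver list 0.63 (2 tested). Their most abundant tested members had values of 0.53 (miR-223-3p), -0.25 (miR-142a-5p), 0.16 (miR-126a-5p) and 0.62 (miR-192-5p). The listed miR-126a-3p, miR-142a-3p and miR-199a-3p had no counts under their own names and are absent from these medians. miR-126b-5p (0.19) and miR-142b (-0.32), in none of these lists, overlap miR-126a-3p and miR-142a-3p on the opposite strand. Counts of miR-126b-5p were nearest to human miR-126-3p (0.0% apart), and those of miR-142b to human miR-142-3p (0.198%). The cancer-linked list had 3 tested members, no call and a median of 0.15 (0.31 without the before-tumor library of mouse 1069). Its members were miR-21a-5p, miR-34a-5p (0.15) and miR-210-3p (-0.21). The most abundant, miR-21a-5p, had 33351, 37215 and 30153 counts before and 44096, 41118 and 44014 after (0.34 ± 0.23, DESeq2 adjusted p = 0.30). Of the pancreas list no member was tested. The 2 tested liver members, miR-192-5p (0.62) and miR-194-5p (0.64), are also in the kidney list, so the 2 medians share values. The liver-specific miR-122-5p was below the count at which miRNAs were tested.

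**Figure D4:**
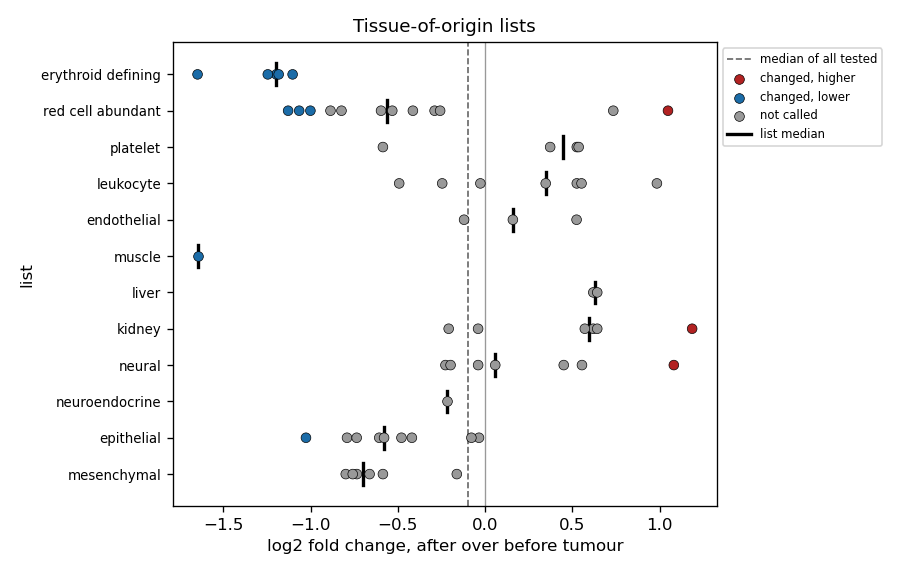
Log2 fold change after over before tumor (x axis) of the tested members of 12 tissue lists (y axis), with list medians as bars and the median of all tested miRNAs as a dashed line. The 5 erythroid members lie between -1.65 and -1.10, and the muscle row holds 1 member.

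The imprinted Dlk1-Dio3 cluster on chromosome 12, which holds many miRNAs expressed in development, had 10 of 11 tested values below 0 and 1 call. Its median of -0.43 was -0.09 without the before-tumor library of mouse 1069 and -0.05 without mouse 1069. The call was miR-381-3p, with 163.2, 131.0 and 299.7 counts before and 129.2, 69.5 and 65.9 after (-1.01 ± 0.36, DESeq2 adjusted p = 0.037). Its 2 most abundant members, miR-434-3p (-0.48, and -0.22 without that library) and miR-136-3p (-0.93, adjusted p = 0.043, and -0.49, adjusted p = 0.16, without it), were not called. The value of miR-381-3p was -0.62 (adjusted p = 0.14) without the before-tumor library of mouse 1069. A pair of accessions without a name here fell as well. MIMAT0020637 had 247.4, 280.7 and 334.8 counts before and 154.9, 105.9 and 57.3 after (-1.27 ± 0.34, DESeq2 adjusted p = 0.0021). MIMAT0014851 had 66, 69 and 225 before and 48, 40 and 42 after, and its value of -1.20 became -0.52 (adjusted p = 0.26) without the same library. miR-449a-5p went from 31, 52 and 70 counts to 27, 11 and 5 (-1.36 ± 0.47), and miR-34c-5p of the same family had a value of -0.96 ± 0.43 that did not pass and was -0.07 without the before-tumor library of mouse 1069. Without that library miR-449a-5p was -1.01 and was not tested.

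The most abundant miRNA of these libraries, miR-22-3p, had 245820, 261104 and 213239 counts before and 217824, 209079 and 227454 after, and overlapped between the groups (-0.13 ± 0.23, DESeq2 adjusted p = 0.75). miR-10b-5p, also among the 10 most abundant, overlapped as well (-0.05 ± 0.24).

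Undepleted aliquots of the same sera, with 21235 to 97183 mouse counts each, were fitted the same way and gave 12 calls of 109 tested (11%). The change of miR-451a was -1.17 ± 0.25 there, that of miR-133a-3p was -1.35 ± 0.28, and that of miR-191-5p was 1.29 ± 0.25. Of the 33 miRNAs changed in the depleted libraries, 30 had the same sign in the undepleted fit, and the rest did not. Both sets are aliquots of the same sera, so a shared sign is not a separate replication. No interaction of time point and depletion passed: 0 of 874 miRNAs in DESeq2 (3 at an unadjusted p under 0.05) and 0 in edgeR (11 unadjusted). The interval of the difference between the arms on the log2 scale was -0.76 to 0.82 for miR-451a, -1.18 to 0.70 for miR-133a-3p and -0.79 to 0.81 for miR-191-5p. The intervals come from the fit without mouse as a term, and differences within them were not excluded. With mouse as a block, 0 interactions passed as well. These 3 are abundant miRNAs. The median SE of the difference over the 33 changed miRNAs was 0.67, so for most of them the interval was wider.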

How the data were processed

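Values are read counts per mature miRNA as deposited by the authors, in 1 mouse and 1 human table per library, not normalised. The authors trimmed adaptors (cutadapt 1.8.1), filtered on quality, mapped without mismatches (Bowtie 1.1.2) and annotated reads by miRBase coordinates on GRCm38/mm10. How reads of several loci were counted is not given in the sources used here. A miRNA without reads is not listed and was taken as 0.

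Mouse counts of the 6 depleted libraries were fitted in DESeq2 1.42.0 (R 4.3.3) with time point as the only term, median-of-ratios scaling, a prior on fold changes and independent filtering, adjusted by the Benjamini-Hochberg method over 311 miRNAs that passed the filter on mean count, the lowest at 10.6. Changed means adjusted p under 0.05 and at least 2-fold. Filtering was set for adjusted p under 0.05, and this level was kept after a fit at 0.1 had also been run. edgeR 4.0.16, other scalings and filters, and fits that left out libraries were alternatives. Replicates are the 3 mice, with 1 library each per time point. The fit was also run on simulated counts, with larger changes than most reported here and calls by adjusted p alone. That run does not show how well changes of the reported size are found.

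The tables hold accessions only. Names were assigned from knowledge of miRBase nomenclature, not from a supplied table, apart from miR-16-5p, whose accession the study states. Of 207 names with counts (98.97% of depleted counts), 178 were checked by counts within 10% of those of the human accession of the same name. The check is not independent: 6 names were added and 2 corrected after the matches had been seen, and an error shared by both species would pass. Unchecked names used are miR-15a-3p, miR-16-1-3p, miR-16-2-3p, miR-92a-3p, miR-126b-5p, miR-130a-3p, miR-142b, miR-215-5p, miR-301b-3p, miR-322-5p, miR-330-3p, miR-339-3p, miR-429-3p, miR-434-3p, miR-486b and miR-1968-5p. Some mature miRNAs overlap others on the opposite strand, and reads of the 2 strands cannot be told apart.

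Same-numbered libraries come from the same mouse. The correlations of their deviations from the group means were -0.42, 0.10 and -0.14 over 213 miRNAs. Members and lists were chosen with earlier results of these data known. The text names every changed miRNA, with the value in every library for the 8 largest changes in each direction that moved alike in all mice, the erythroid list, and the most abundant members of lists and families.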

Additional observations from a re-analysis of the deposited data

How the results depend on the processing

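All 33 changed miRNAs kept their direction under every setting tried, and the settings moved calls. The count was 52 (23 higher, 29 lower) with no fold limit, 40 in edgeR, and 32 with filtering at alpha 0.1, an alternative chosen after the data were seen. Leaving out libraries or mice gave 12 to 37 calls, 5 to 18 higher and 4 to 20 lower, and total-count scaling gave 32 higher and 5 lower. With mouse as a replicate block, pairing the libraries, 26 miRNAs changed, 25 of them among the 33. The erythroid share fell by 6.50 to 7.88 points when a mouse was left out.

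Total-count scaling moved list medians to -0.93 (erythroid), -0.30 (red cell), 0.40 (endothelial), -0.60 (miR-106b-25 cluster), 0.31 (miR-30) and 0.55 (miR-29). Leaving out libraries gave -1.35 to -0.99 (erythroid), -0.87 to -0.18 (mesenchymal) and -0.16 to 0.34 (cancer-linked list). The same scaling turned uncalled values positive for miR-22-3p (0.13), miR-10b-5p (0.17), miR-142a-5p (0.0091), let-7g-5p (0.19), miR-181a-5p (0.097), miR-181c-5p (0.27), miR-125a-5p (0.14), miR-425-5p (0.20) and miR-221-3p (0.16). miR-125a-5p was 0.0042 in edgeR and 0.0039 with TMM factors, and miR-181c-5p 0.0046 with the block. Leaving out libraries gave ranges across 0 for let-7g-5p (-0.10 to 0.023), miR-10b-5p (-0.14 to 0.10), miR-125a-5p (-0.20 to 0.28), miR-125b-5p (-0.52 to 0.24), miR-152-3p (-0.70 to 0.36), miR-181c-5p (-0.27 to 0.34), miR-200c-3p (-0.83 to 0.033), miR-221-3p (-0.35 to 0.14), miR-375-3p (-0.74 to 0.89), miR-425-5p (-0.41 to 0.12), miR-429-3p (-0.75 to 0.23) and miR-99a-5p (-0.60 to 0.35). The cause was not tested. A check of GC content was void, since 21 of 33 changed miRNAs had a sequence. With 3 libraries a group, the smallest exact permutation p is 0.10.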
